A study of Mus musculus with 2 samples.

Results

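The genes of the TNF receptor superfamily, their ligands and the TRAF adaptor proteins were examined in a list of differentially methylated regions between 2 mouse adipose progenitor libraries. The set held 46 of 21887 protein-coding genes and was fixed by name, with Tnfrsf9, the gene of the sorted antigen CD137, and its ligand gene Tnfsf9 set beside the other members. A region was assigned to a gene when it overlapped the gene body extended by 20 kb on both sides. By this rule 37 of the 34139 listed regions belonged to the set. One library came from PDGFRα+ progenitors and the other from CD137+ progenitors of C57BL/6 mice. Both populations were magnetically sorted from subcutaneous or visceral fat, cultured, exposed to an adipogenic cocktail and treated with DEX (dexamethasone, a synthetic glucocorticoid), so the treatment was common to both. The labels give no genotype other than the strain, no age and no depot per library. They also do not say how many animals were pooled, and no untreated library was analysed here. Bisulfite sequencing reads methylated cytosines as C and unmethylated cytosines as T, so each region marks a stretch that the authors listed as differing in methylation between the libraries.

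Receptors of this family bind trimeric ligands of the TNF family at the cell surface and recruit TRAF proteins, or through a death domain the adaptors TRADD and FADD. Downstream, ubiquitin ligases and kinases release NF-κB transcription factors, start caspase-dependent cell death, or both. CD137 is a costimulatory receptor of activated T and NK cells that recruits TRAF1 and TRAF2, and in fat it has been used as a surface marker of beige adipocyte precursors. In adipose tissue TNF itself is known as an inflammatory cytokine that opposes insulin action and fat cell differentiation.

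Each region carries 1 signed score from the authors and no methylation level. The score has no stated unit and no stated order of subtraction. The list's title names the PDGFRα+ sample before the CD137+ sample. Should the score be a difference in that same order, negative values would stand for less methylation in PDGFRα+ cells. Neither group had a second library, so no spread between replicates and no test could be had, and the read depth behind each region is unknown. A gene without a region is therefore a gene with no listed difference, which does not show that the libraries were alike there. No expression was measured, so the sorted antigens could not be checked at the RNA or protein level.

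The promoters of the genes on which the description turns are shown first, from the RefSeq promoter table for GRCm38.p6 (the assembly that mm10 names), which runs from 250 bases before to 50 after a transcription start and held 39 of the 46 members. Tnfrsf9 is printed because it encodes the sorted antigen, with both of its listed starts, and the capitals mark CpG dinucleotides. The first window (chr4:150919905-150920204, plus strand) has 4 CpG sites and the second (chr4:150927749-150928048, plus strand) has 6, against a median of 7 over 32851 promoters. No region touched either window.
Tnfrsf9 first start: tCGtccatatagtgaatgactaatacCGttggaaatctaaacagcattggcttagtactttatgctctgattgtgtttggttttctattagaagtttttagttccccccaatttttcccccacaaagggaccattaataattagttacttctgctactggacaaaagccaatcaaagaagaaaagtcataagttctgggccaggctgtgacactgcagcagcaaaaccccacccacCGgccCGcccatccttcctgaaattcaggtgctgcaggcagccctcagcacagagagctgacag
Tnfrsf9 second start: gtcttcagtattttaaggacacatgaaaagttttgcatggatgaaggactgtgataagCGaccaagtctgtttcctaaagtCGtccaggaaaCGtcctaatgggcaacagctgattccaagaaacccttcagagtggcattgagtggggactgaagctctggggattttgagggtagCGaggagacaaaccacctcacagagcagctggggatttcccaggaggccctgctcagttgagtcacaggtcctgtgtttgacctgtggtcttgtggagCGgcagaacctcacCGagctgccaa

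Tnfsf13b is printed because it was the 1 member with a region in its promoter window (chr8:10006217-10006516, plus strand), and here the capitals mark the 104 bases of that region. The region runs from base 5 to base 108 of the window and touches 4 of its 6 CpG sites.
Tnfsf13b: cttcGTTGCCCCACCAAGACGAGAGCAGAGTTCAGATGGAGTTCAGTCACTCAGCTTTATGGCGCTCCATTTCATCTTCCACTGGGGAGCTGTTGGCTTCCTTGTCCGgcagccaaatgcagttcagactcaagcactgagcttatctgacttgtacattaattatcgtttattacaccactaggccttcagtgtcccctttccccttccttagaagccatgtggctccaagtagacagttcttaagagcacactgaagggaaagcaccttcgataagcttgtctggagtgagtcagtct

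Traf3 is printed because it held the most regions of any member, with none in this window (chr12:111166120-111166419, plus strand). The capitals mark its 59 CpG sites, a number reached by 0.10% of all promoters in the table.
Traf3: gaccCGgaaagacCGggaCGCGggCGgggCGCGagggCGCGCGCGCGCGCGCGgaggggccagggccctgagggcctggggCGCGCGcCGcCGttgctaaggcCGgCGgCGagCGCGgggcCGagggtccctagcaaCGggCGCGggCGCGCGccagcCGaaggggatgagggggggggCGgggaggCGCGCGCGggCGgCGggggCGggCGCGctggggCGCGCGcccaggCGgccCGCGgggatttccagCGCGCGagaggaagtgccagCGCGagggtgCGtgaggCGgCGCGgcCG

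Among the 43 promoter windows of the members, 1 was touched by a region (2.33%), against 397 of all 32851 windows (1.21%). The members' windows held a median of 11 CpG sites, with a lowest value of 2 at Tnfrsf14 and a highest of 59 at Traf3. Windows of members with a region had a median of 12 (25 windows, 4 to 59), and those of members without one had a median of 8 (18 windows, 2 to 28).

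Of the 46 genes, 23 had at least 1 region within 20 kb (50%), and the share over all protein-coding genes was 50.5%. The count is thus at the background and says nothing particular about these genes. Negative regions lay at 21 members, or 45.7%, against 41.0% of all protein-coding genes, and positive regions at 6 members, or 13.0%, against 24.7%. A region of absolute score 100 or more lay at 5 members, or 10.9%, against 15.8% of all protein-coding genes. These were Tnfrsf9, Cd40, Tnfrsf19, Tnfrsf25 and Fasl. Within the gene body alone, 12 members (26.1%) had a region, against 28.9%. Read per length, the joined windows of the members held 13.3 regions per Mb over 2.78 Mb, against 15.5 per Mb in the windows of all protein-coding genes. This order turned round in gene bodies alone (19.9 against 16.9 per Mb) and with 50 kb on both sides (15.8 against 15.1).

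Long genes had regions more often, both in the set and over all genes. Among members under 10 kb, 7 of 18 had a region (38.9%), against 31.7% of all protein-coding genes of that length. For members of 10 to 30 kb the count was 9 of 17 (52.9%), against 48.1%. For members of 30 kb or more it was 7 of 11 (63.6%), against 72.6%.

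**Figure D1:**
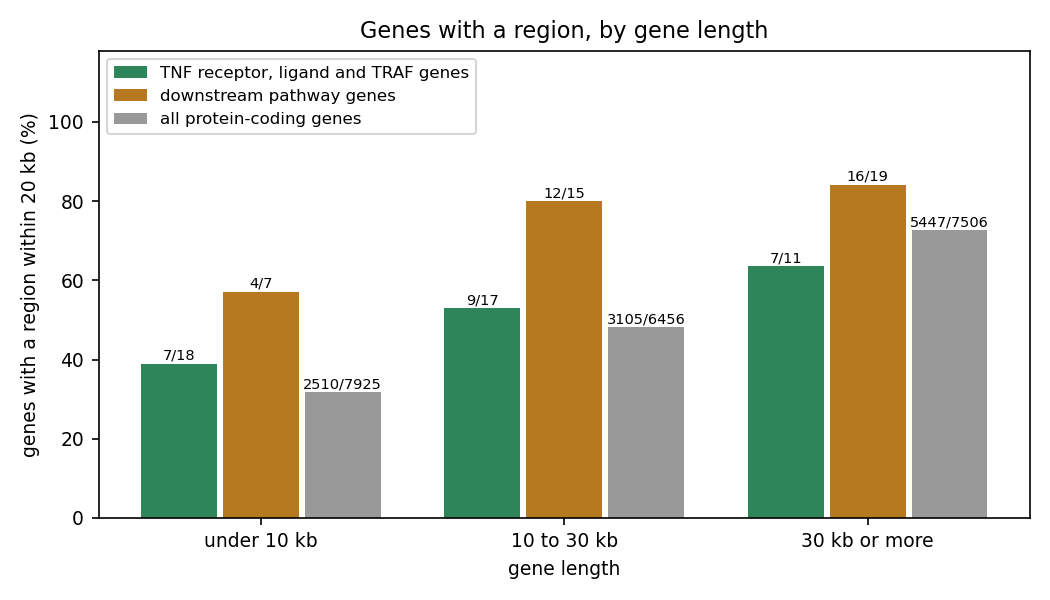
Bars give the percentage of genes with at least 1 region within 20 kb, by gene length, for the 46 TNF receptor, ligand and TRAF genes, the 41 downstream pathway genes and all protein-coding genes, with the counts above each bar. The share rises with gene length in each of the 3 sets, and the 46 genes lie at 38.9%, 52.9% and 63.6%, against 31.7%, 48.1% and 72.6% for all protein-coding genes.

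The regions at the members leaned to negative scores. Of the 37 regions 31 were negative, or 83.8% (95% Wilson interval 68.9 to 92.3, which covers the counting of regions only), against 66.9% of the regions within 20 kb of any protein-coding gene. Regions of 1 gene share that gene, and Traf3 and Tnfsf10 together supplied 9 of the 31. Without these 2 genes the share was 78.6% of 28 regions, and its interval (60.5 to 89.8) took in the 66.9%. By gene, 17 of the 23 members with a region had only negative ones and 2 had only positive ones (Cd27 and Traf6). The other 4 had 1 of each sign (Tnfrsf13b, Tnfrsf19, Tnfrsf25 and Edar). Among the 11062 protein-coding genes with a region, 5645 had only negative regions, 2091 only positive ones and 3326 both. The scores were of ordinary size, with a median absolute value of 55.4 against 49.4 over the whole list, and the median width was 112 bp in both.

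**Figure D2:**
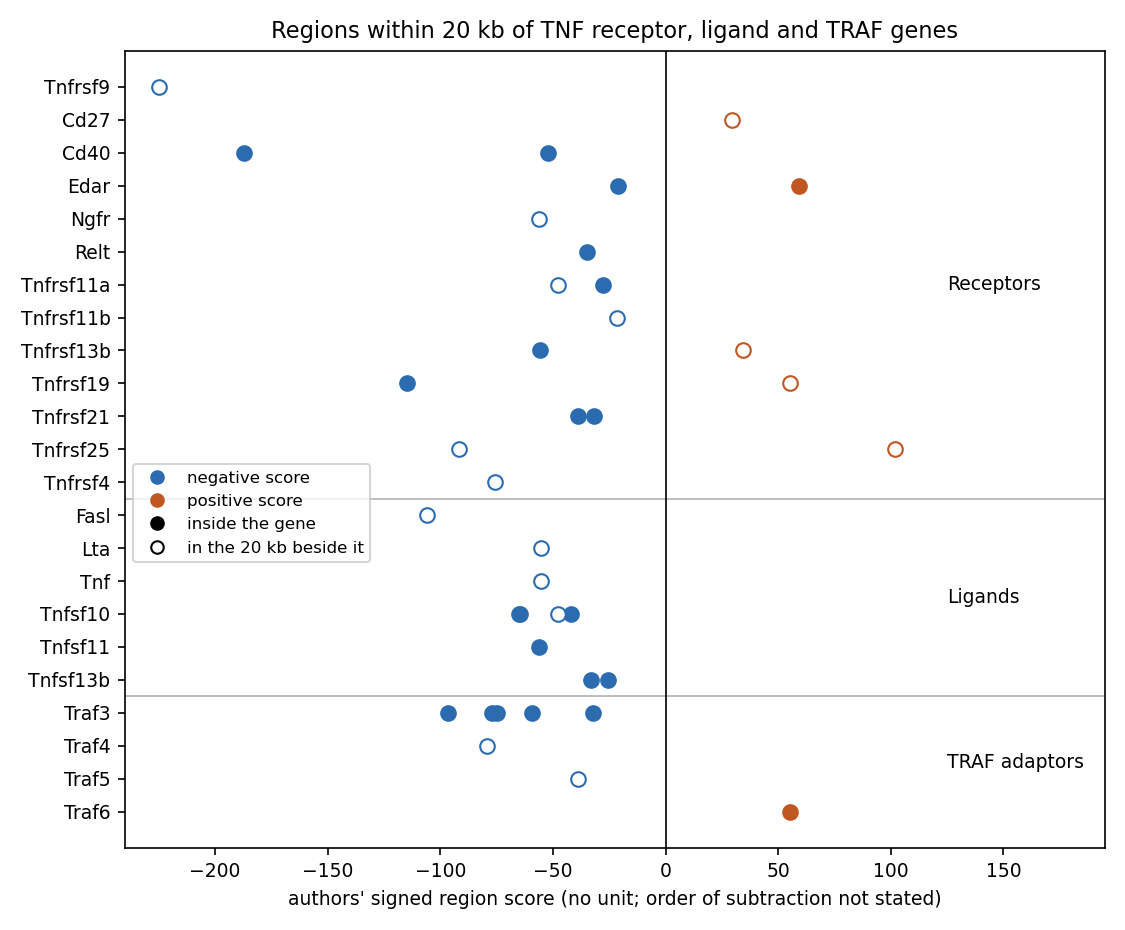
Each point is 1 region, placed by the authors' signed score (x axis, no unit) beside the member it belongs to, filled when it overlaps the gene and open when it lies in the 20 kb beside it. The single region shared by Tnf and Lta appears at both. Most points lie left of 0, the lowest at Tnfrsf9 (-225) and Cd40 (-187), and the highest at Tnfrsf25 (102).

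Tnfrsf9 and its ligand gene had no region in the gene body. Tnfrsf9 (chromosome 4, 150920155 to 150946104) had 1 region in its window, 389 bp wide at 150902017 to 150902405, with a score of -225. It was the most negative score of the 37 and stood at rank 810 of the list by absolute score, among the top 2.37%. Its score per bp was 0.578, against a median of 0.43 over all regions. Wide regions had larger scores, and the 2563 regions of 300 to 500 bp had a median absolute score of 116. The rank over the whole list is to be read beside that value. The region lies 17.8 kb upstream of the Tnfrsf9 start, near the outer limit of the window, and inside the neighbouring gene Park7, which encodes an oxidative stress protein linked to Parkinson disease. Park7 spans 150897133 to 150909921, so the region sits 4.88 kb from its lower end and 7.52 kb from its upper end. Park7, not Tnfrsf9, is the nearest protein-coding gene, and with 50 kb on both sides of Tnfrsf9 no further region was found. Tnfsf9 (chromosome 17, 57105287 to 57107758) encodes the CD137 ligand and had none in its window. The nearest region to Tnfsf9 was positive, 105 bp wide with a score of 30.5, and 63.1 kb away. For Pdgfra, the gene of the other sorted antigen, the same rule found 2 regions, with scores of 109 and -137.

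**Figure D3:**
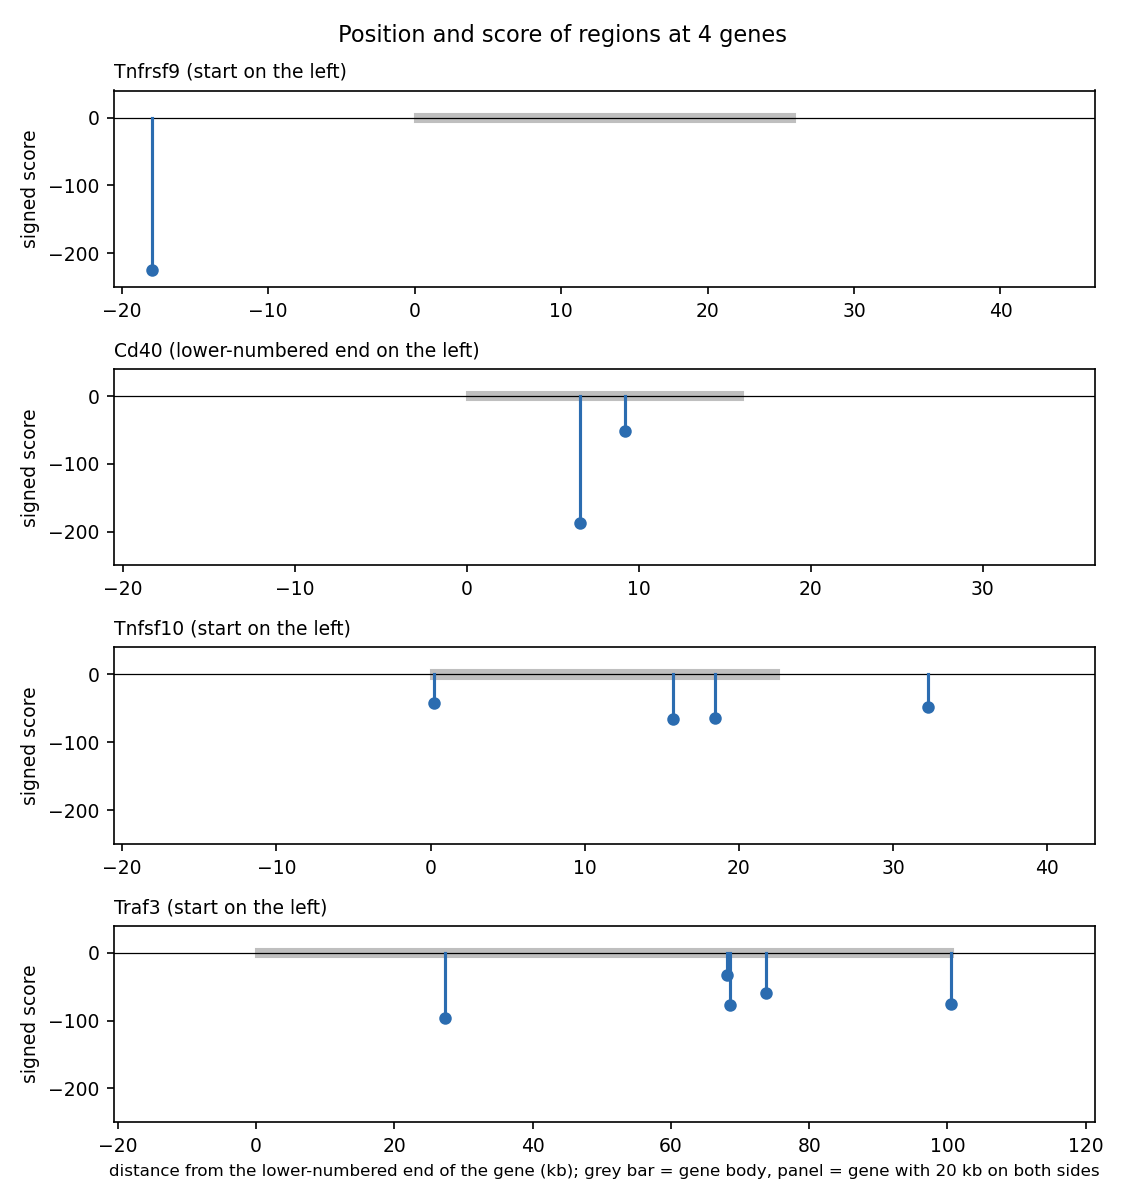
Each panel shows 1 gene (grey bar) with 20 kb on both sides, positions in kb from the lower-numbered end of the gene (x axis) and the authors' signed score of each region (y axis, no unit). The Tnfrsf9 region stands alone 17.8 kb outside the gene, the Cd40 pair lies in the middle of the gene, and the regions of Tnfsf10 and Traf3 are spread along them, all with negative scores.

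Among the 24 receptor genes 13 had a region (54.2%, against 50.5% of all protein-coding genes), and 15 of their 20 regions were negative (75.0%, against 66.9%). The widest of the 37 regions lay inside Cd40, and 317 regions of the whole list were at least as wide. CD40 is the receptor through which T cells activate B cells and antigen-presenting cells. Its region of 675 bp at 165061861 to 165062535 of chromosome 2 scored -187, and a second of 112 bp, 57.5% of the way along the gene from its lower-numbered end, scored -52.1. The first ranked 1298 by absolute score. Because scores grow with width, it is better read beside the 808 regions of 500 to 1000 bp, whose median absolute score was 166. Its score per bp, 0.278, was below the median of the list.

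Tnfrsf19, an orphan receptor gene known from hair follicle and neural development, had regions of opposite sign. A region of 211 bp at 60993501 to 60993711 of chromosome 14, inside the gene and 44.3 kb downstream of the nearest start, scored -115. The other, 84 bp wide, lay 0.455 kb upstream of the start, within the noncoding gene Gm41167, and scored 55.1. It was 1 of 3 member regions within 1 kb of a member's start and the only positive one of these. Tnfrsf25, a death-domain receptor gene, also had both signs, at -91.9 and 102. The negative region lay inside Plekhg5 and the positive one inside Espn, on either side of the short Tnfrsf25 gene, and these neighbours, not Tnfrsf25, were the nearest protein-coding genes. Edar, the ectodysplasin receptor gene of skin appendages, had 2 regions inside it, with scores of -20.9 and 59.3.

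The genes of the RANK axis, which controls osteoclast formation, each had 1 or 2 weak negative regions. Tnfrsf11a, which encodes the receptor RANK, had a region of 53 bp scoring -27.9 at 99.1% of the gene's length and a second scoring -47.9, 9.62 kb beyond its downstream end. Tnfsf11, the gene of its ligand RANKL, had a region of 85 bp inside the gene scoring -56.0. Tnfrsf11b, which encodes the soluble decoy osteoprotegerin, had a region scoring -21.7 at 12.7 kb from the gene. All 4 regions of the axis were negative, against 66.9% of the regions within 20 kb of any protein-coding gene. None reached an absolute score of 100, which 15.5% of all listed regions did. So few regions say nothing particular about the axis.

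The B-cell survival axis was covered in part. Tnfsf13b, the gene of the cytokine BAFF, had the promoter region printed above, 104 bp wide with a score of -32.9. It ends 0.143 kb upstream of the first start in the promoter table. It also covers the lower end of the gene in the gene table (10006229), so it counts as inside the gene. A second region at Tnfsf13b, 15.0 kb downstream of a start, scored -25.5. Tnfrsf13b, which encodes the BAFF and APRIL receptor TACI, had a region scoring -55.8 inside the gene and another scoring 34.6 inside Usp22, 15.4 kb beyond the gene. Tnfrsf13c and Tnfrsf17, the genes of the other receptors of this axis, and Tnfsf13, the gene of APRIL, had none within 20 kb.

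The other receptor genes with regions had scores between -75.9 and 29.5. Tnfrsf21, a death receptor gene of the nervous system and lymphocytes, had 2 negative regions inside it (-38.9 and -31.9). Ngfr, the low-affinity neurotrophin receptor gene, had 1 at -56.4, 8.33 kb upstream of its start. Relt had 1 inside the gene at -35.1. Tnfrsf4, the gene of the T-cell costimulator OX40, had 1 at -75.9, inside Sdf4 and 15.6 kb from the gene. Cd27, which encodes another T-cell costimulator, had a positive region scoring 29.5 at 19.6 kb, the closest of all to the limit of 20 kb on the inner side. On the outer side the closest was Tnfsf12, with a positive region of score 114 at 22.7 kb. Receptor genes without a region in the window included Fas, Tnfrsf1a and Tnfrsf1b, which encode the death receptor of FasL and both receptors of TNF.

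Of the 16 ligand genes 6 had a region (37.5%, against 50.5% of all protein-coding genes). Their 9 regions all carried negative scores (100%, against 66.9% near all protein-coding genes). The 95% Wilson interval, 70.1 to 100%, covers the counting of regions only and takes regions of 1 gene as separate. Ligand genes were short, with a median of 8.83 kb against 17.2 kb over all protein-coding genes. Tnfsf10, the gene of the death ligand TRAIL, had 4 of the 9. The first, of 59 bp, lay 0.201 kb downstream of the start and scored -41.8. The next 2, inside the gene at 69.6% and 81.6% of its length, scored -65.2 and -64.8, and the last, 9.61 kb beyond the downstream end, scored -47.8. These 4 were close in size, and for each of them Tnfsf10 was the nearest protein-coding gene and no other lay within 20 kb. Fasl had a region of 258 bp scoring -106 at 13.3 kb downstream of the gene, inside the noncoding gene Gm31869. Tnf and Lta, neighbours that encode TNF and lymphotoxin alpha, shared 1 region of 79 bp scoring -55.4, which lay inside Nfkbil1, 18.7 kb from Tnf and 15.1 kb from Lta.

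The TRAF adaptor genes had regions in 4 of 6 members (66.7%, against 50.5% of all protein-coding genes). Of their 8 regions 7 were negative (87.5%, against 66.9%), and 5 of the 8 lay in Traf3. Traf3, whose product restrains the alternative NF-κB pathway by promoting loss of the kinase NIK, had 5 regions, all negative and all inside the gene (chromosome 12, 111166321 to 111267155). From its start onward they scored -96.7, -32.2, -77.2, -59.5 and -75.0. The widest, of 396 bp, lay 27.1 kb downstream of the start, 3 others lay between 68.0 and 73.6 kb, and the last stood at 99.7% of the gene's length. Traf3 is 101 kb long, the longest member, so a count of 5 is read beside its length. Traf5, of nearly the same length (95.4 kb), had 1 region, scoring -38.7, 16.6 kb upstream of its start and inside Rcor3. Traf4 had 1 region of 339 bp scoring -79.4, inside Fam222b, and Traf6, an adaptor of CD40, RANK and Toll-like receptors, had the only positive region of this group, 55.3, at 95.7% of its length. Traf1 and Traf2, whose products bind CD137, had none. Their nearest regions were 62.8 kb away (score -37.2) and 145 kb away (score -26.9).

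The 23 members without a region within 20 kb comprised 11 receptor genes, 10 ligand genes and 2 adaptor genes. The distance to their nearest region ran from 22.7 kb at Tnfsf12 to 173 kb at Tnfrsf12a, and 13 of them had none within 50 kb. With 50 kb on both sides, 33 members of the whole set had a region (71.7%, against 68.5% of all protein-coding genes). The count of 13 is thus near the background. Beside the genes already named, the 23 members were Tnfrsf8, Tnfrsf10b, Tnfrsf14, Tnfrsf18, Ltbr, Ltb, Tnfsf4, Tnfsf8, Tnfsf14, Tnfsf15, Tnfsf18 and Cd70. Their median length was 10.1 kb, against 23.2 kb for the members with a region.

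**Figure D4:**
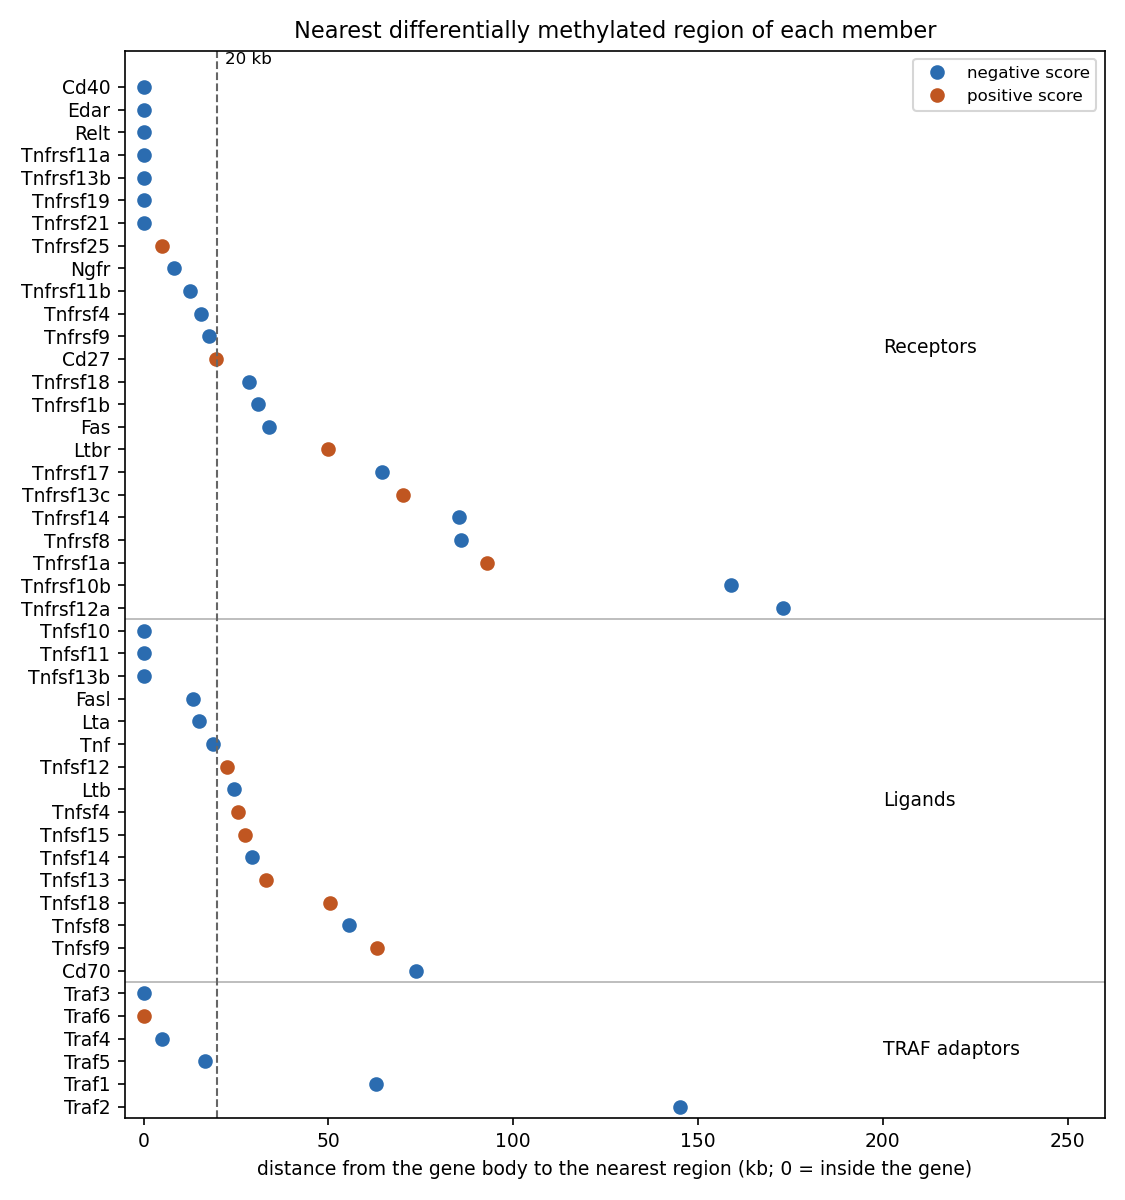
Each point is the distance in kb from a member's gene body to its nearest region (x axis), coloured by the sign of that region's score, with a dashed line at 20 kb. Members with a region inside the gene stand at 0, and the 23 members right of the line reach from 22.7 kb at Tnfsf12 to 173 kb at Tnfrsf12a.

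Members that lie next to each other in the genome had few regions. A total of 8 sets, chosen after their values were seen, joined 19 members whose bodies lie under 100 kb apart. They are Tnfsf9 with Cd70 and Tnfsf14, Ltb with Tnf and Lta, Cd27 with Ltbr and Tnfrsf1a, Tnfsf4 with Tnfsf18, Tnfsf12 with Tnfsf13, Tnfsf15 with Tnfsf8, Tnfrsf1b with Tnfrsf8, and Tnfrsf4 with Tnfrsf18. In these sets 4 of 19 members had a region (21.1%, against 50.5% of all protein-coding genes), and 5 of the 8 sets had none. Their windows held 3 regions in 0.816 Mb, or 3.68 per Mb, and none lay inside a member. The 27 members that stand alone had a region in 19 cases (70.4%, against the same 50.5%), with 34 regions in 1.96 Mb, or 17.4 per Mb. The neighbouring members were shorter, with a median of 4.71 kb against 23.2 kb. Of all protein-coding genes under 10 kb, 31.7% had a region, and their windows held 12.2 regions per Mb. No share was taken for other genes that lie next to each other. The part of gene length and of CpG content in this difference was not tested.

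By position, 22 of the 37 regions overlapped a member and 15 lay beside one. Of these 15, 8 lay inside another protein-coding gene, 3 inside a noncoding gene only and 4 in no annotated gene. For 7 of the 15 a member was the nearest protein-coding gene. The promoter table gave an orientation for 14 of them, 8 upstream and 6 downstream of the member. Exons, introns and untranslated regions are not marked in the gene table used, so positions inside genes are given only along the gene.

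Downstream of the receptors, a list of 41 genes of the death complex, the ubiquitin enzymes, the kinases and the NF-κB factors had regions in 32 members (78.0%, against 50.5% of all protein-coding genes). These genes were longer than average, with a median of 27.2 kb. By length the counts were 4 of 7 under 10 kb, 12 of 15 from 10 to 30 kb, and 16 of 19 at 30 kb or more, against 31.7%, 48.1% and 72.6% of all protein-coding genes. Of their 64 regions, 49 were negative, or 76.6%, against 66.9% near all protein-coding genes. The Wilson interval of this share (64.9 to 85.3) took in the 66.9%.

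The kinase genes held 33 of these regions, in 12 of 13 members (92.3%, against 50.5% of all protein-coding genes and 72.6% of those of 30 kb or more). Their median length was 47.6 kb. Of the 33 regions 30 were negative (90.9%, against 66.9% near all protein-coding genes). Map3k14, which encodes the kinase NIK that TRAF3 holds in check, had 4 regions inside the gene, scoring 112, 37.0, -93.6 and -75.2 from its lower-numbered end. Tank, whose product binds TRAF proteins, had 2 negative regions just upstream of its start, scoring -110 at 0.840 kb and -40.3 at 0.628 kb. Ikbkb, which encodes a kinase that marks the NF-κB inhibitor IκB for removal, had 4 negative regions, the strongest at -87.2. Tab1, Tab2, Tab3 and Map3k7, which encode the TAK1 kinase and its binding partners, had only negative regions, with scores between -82.0 and -23.7.

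The NF-κB genes had regions in 8 of 9 members (88.9%, against 50.5% of all protein-coding genes), and 9 of 14 regions were negative (64.3%, against 66.9%). The highest and the lowest score of the list of 41 lay at these genes. A region of 474 bp at 45544795 to 45545268 of chromosome 17, 10.4 kb upstream of Nfkbie, scored 724 and ranked 38 in the whole list, but its nearest protein-coding gene was Tmem151b. A region of 228 bp scoring -253 lay 5.85 kb downstream of Rela, with Sipa1 the nearest gene, and a second there scored 91.8. Inside Nfkbia, the gene of the inhibitor IκBα, a region of 324 bp scored 127. Nfkb1 had 5 regions, 4 of them negative, none above an absolute score of 62.5. Bcl3 had none.

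The death complex genes had regions in 7 of 10 members (70.0%, against 50.5% of all protein-coding genes), and 5 of 9 regions were negative (55.6%, against 66.9%). Tradd, the adaptor of death-domain receptors, had 2 regions beside the gene, scoring -182 and -119, in a dense stretch where 7 and 8 protein-coding genes lay within 20 kb of them. Casp8 and Cflar each had 1 weak positive region, scoring 40.5 at Casp8 and 31.9 at Cflar. The ubiquitin enzyme genes had regions in 5 of 9 members, a share of 55.6% that is near the 50.5% of all protein-coding genes. None of these reached an absolute score of 100, against 15.8% of all protein-coding genes with such a region. Birc2 and Birc3, which encode the ligases that TRAF2 recruits, shared a region scoring -58.5, and Tnip1 had 5 regions of both signs. Ripk1, Fadd, Ripk3, Rnf31, Sharpin, Cyld, Tnfaip3 and Ikbkg had none in their windows.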

How the data were processed

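Genomic DNA of 1 PDGFRα+ and 1 CD137+ progenitor library was bisulfite-converted and sequenced, per the labels' protocols. The authors deposited 1 headerless list of differentially methylated regions, each with coordinates and a signed score. Coordinates are on mm10, per the submitters' processing notes. Which aligner and caller were used, and with what cutoffs, is not given in the sources used here. Coverage is unknown, and the score served only to describe and rank regions within this list. Starts were taken as counted from 0, as in BED, and are printed counted from 1. This was checked where region edges fell inside RefSeq promoter windows. All 235 starts and all 268 ends stood at a cytosine of a CpG site on either strand, against 71 of 233 starts if starts counted from 1.

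Genes came from a RefSeq table for GRCm38.p6 (21887 protein-coding genes on the chromosomes), where all 46 members and all 41 pathway genes matched by symbol. An overlap of 1 bp with the gene body plus 20 kb on both sides assigned a region. A region in the windows of several genes was credited to all of them but entered shares of negative regions once. Members, lists and the rule for naming genes (each member with a region, and pathway genes with a region of absolute score 100 or more; further pathway genes were named after their values were seen, and some results are not reported here) were chosen with earlier results of these data known. Intervals on shares are Wilson intervals at 95%, and no test was run. The assignment was tested on simulated data. Python 3.11.15, pandas 2.3.3 and SciPy 1.17.1 were used. The alternatives changed the stretch, the regions used, the overlap, the gene a region counts for and the counting of starts.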

Additional observations from a re-analysis of the deposited data

How the results depend on the processing

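With 1 library per group no replicate could be left out. No paired analysis was possible because each group has 1 library. The 8 alternatives gave 63 values, of which 38 stayed close to the value reported (counts within 1.5 times it, shares and densities within the counting interval) and 25 did not. The negative share of the member regions stayed between 80% and 90.9% under all 8 alternatives and above that of all protein-coding genes, which was 66.6% to 68.7%. Its interval took in the share of all protein-coding genes for absolute scores of 100 or more (5 regions, 37.6 to 96.4, against 67.1%) and for regions of at least 100 bp (21 regions, 65.4 to 95, against 68.7%). Outside the 8 alternatives, it also did so without Traf3 and Tnfsf10 (28 regions, 60.5 to 89.8, against 66.9%). These intervals take regions of 1 gene as separate and are no test. Requiring that most of a region's width overlap, or reading starts from 1, moved no value past these limits.

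Members with a region numbered 12 with the gene body alone (26.1%, against 28.9% of all protein-coding genes), 13 with 5 kb (28.3%, against 35.1%), 5 with absolute scores of 100 or more (10.9%, against 15.8%), and 15 with regions of at least 100 bp (32.6%, against 36.9%). The regions themselves numbered 22, 24, 5 and 21 in the same order, and 79 with 50 kb. Density was 19.9 per Mb in gene bodies (16.9 over all protein-coding genes), 1.80 for absolute scores of 100 or more (2.55) and 7.57 for regions of at least 100 bp (8.95).

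Members with a region of absolute score 100 or more numbered 2 with the gene body alone (4.35%, against 9.12% of all protein-coding genes), 2 with 5 kb (4.35%, against 10.8%), 11 with 50 kb (23.9%, against 24.8%), and 3 when a region counted only for its nearest gene (6.52%, against 11.3%). Tnfrsf9 had 0 regions with the gene body alone, with 5 kb and by nearest gene. Pathway genes with a region numbered 16 with the gene body alone (39.0%, against 28.9%), 7 for absolute scores of 100 or more (17.1%, near the 15.8% of all protein-coding genes), 21 for regions of at least 100 bp (51.2%, against 36.9%) and 21 by nearest gene (51.2%, against 37.3%). Their negative share was 50% of 8 regions for absolute scores of 100 or more (against 67.1%) and 90.0% of 30 regions of at least 100 bp (against 68.7%). Fewer regions or shorter windows enter each of these settings by construction, except the 50 kb one. The unknown depth limits every value.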
